A study of Mus musculus with 9 samples.

Results

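The 38 cell cycle and replication genes described here were all found among the 55385 genes counted in mouse spleen cells. They were chosen by symbol and fall into 12 genes whose transcripts peak when DNA is copied (S members), 22 whose transcripts peak before and during division (G2/M members) and 4 that dividing cells hold in plenty but other cells also hold (broad members). The S members were Mcm2, Mcm3, Mcm4, Mcm5, Mcm6, Mcm7, Pcna, Rrm1, Rrm2, Tyms, Gins2 and Tk1. The G2/M members were Mki67, Top2a, Birc5, Ccna2, Ccnb1, Ccnb2, Cdk1, Ube2c, Cenpa, Cenpe, Cenpf, Tpx2, Nusap1, Kif11, Kif23, Aurka, Aurkb, Bub1, Bub1b, Plk1, Cdc20 and Ckap2l. The broad members were Stmn1, H2az1, Hmgb2 and Tubb5. They lie on 16 chromosomes, and 7 of them overlap another protein-coding gene by position. These are Mcm7 with Ap4m1, Gins2 with Gse1, Tk1 with Afmid, Ccna2 with Exosc9, Nusap1 with Oip5, Aurka with Cstf1 and Cdc20 with Elovl1. The strands of these pairs and the reads in their shared stretches were not examined.

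The study concerned a point mutation, R594C, in IRE1α, the sensor of the endoplasmic reticulum whose RNase splices Xbp1 mRNA and which B cells need for becoming plasma cells. Sorted live splenocytes of 3 genotypes were stained with 191 DNA-tagged antibodies and with hashtags that mark replicates, and RNA and tags were sequenced together from 1 droplet capture per genotype. Mutant homozygotes (R594C/R594C) had 2 hashtag replicates, heterozygotes (R594C/+) had 4 and wild types (WT) had 4. No other genotype, treatment or age is given. Genotype, capture and staining therefore cannot be told apart, and the labels do not say that each hashtag marked a separate mouse. A p-value here sets a difference against the variation among hashtag replicates, which may be technical.

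After filtering, 42605 cells were kept, of which 14975 were R594C/R594C, 15188 R594C/+ and 12442 WT, with 2983 to 7735 cells and 13488734 to 31009440 RNA molecules (UMIs) per replicate. Each pair of captures shared 68 to 89 cell barcodes. All 4 R594C/+ replicates expressed Xist, as did 1 of 2 R594C/R594C and 1 of 4 WT replicates, so the contrast of R594C/+ with WT was close to a contrast of females with males. Barcodes with no hashtag held G2/M members more often than hashed cells, and they were left out. Cells were grouped into 40 clusters after removal of the 38 members and of 28 further S and 42 further G2/M genes. Histone genes that dividing cells express, such as H3c3, were not on these lists. A group is called "X-like" from listed marker genes.

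A dividing cell first licenses and copies its DNA and then condenses and separates it. E2F factors switch on the helicase, nucleotide and polymerase clamp genes at the start of S phase, while the DREAM and B-Myb/FoxM1 complexes act on the promoters of mitotic genes through an element called CHR, often with CCAAT boxes bound by NF-Y. In the spleen, division is known in germinal centre B cells that respond to antigen, in plasmablasts on the way to plasma cells, in activated T cells, and in red and white blood cell precursors, which mouse spleen can produce. Most follicular B cells and naive T cells rest.

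The promoters of 5 members are shown because the genotype results turn on Birc5, Ube2c and Aurka, because Cenpa was the G2/M member least tied to dividing cells, and because Mcm5 stands for the S members. Each is 300 bases, from 250 before to 50 after the annotated start, written 5′ to 3′ on the gene's own strand, from RefSeq on GRCm38.p6. Capitals mark matches to the CHR letters TTTGAA or TTCAAA, the CCAAT box letters CCAAT or ATTGG, and the E2F letters TTTCGCGC, TTTGGCGC or TTCCCGCC with their reverse complements GCGCGAAA, GCGCCAAA and GGCGGGAA.
Birc5, chr11:117848987-117849286, plus strand: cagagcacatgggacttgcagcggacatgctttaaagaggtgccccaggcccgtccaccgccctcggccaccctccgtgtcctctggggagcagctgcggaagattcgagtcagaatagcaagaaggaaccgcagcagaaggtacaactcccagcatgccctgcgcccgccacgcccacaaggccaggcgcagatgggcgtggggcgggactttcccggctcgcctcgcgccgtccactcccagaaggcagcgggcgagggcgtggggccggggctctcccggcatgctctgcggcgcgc
Ube2c, chr2:164769679-164769978, plus strand: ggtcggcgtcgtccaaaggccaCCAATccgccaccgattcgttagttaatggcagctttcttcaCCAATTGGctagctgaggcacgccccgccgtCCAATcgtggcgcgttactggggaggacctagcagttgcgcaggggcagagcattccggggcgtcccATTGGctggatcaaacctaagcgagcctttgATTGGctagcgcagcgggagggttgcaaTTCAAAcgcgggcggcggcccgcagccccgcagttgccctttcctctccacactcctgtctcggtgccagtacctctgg
Aurka, chr2:172370521-172370820, minus strand: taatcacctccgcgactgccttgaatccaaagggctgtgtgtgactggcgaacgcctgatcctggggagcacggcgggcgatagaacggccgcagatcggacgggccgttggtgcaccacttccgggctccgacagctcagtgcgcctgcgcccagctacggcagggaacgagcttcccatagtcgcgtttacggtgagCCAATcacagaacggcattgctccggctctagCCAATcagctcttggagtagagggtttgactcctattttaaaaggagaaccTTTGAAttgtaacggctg
Cenpa, chr5:30666636-30666935, plus strand: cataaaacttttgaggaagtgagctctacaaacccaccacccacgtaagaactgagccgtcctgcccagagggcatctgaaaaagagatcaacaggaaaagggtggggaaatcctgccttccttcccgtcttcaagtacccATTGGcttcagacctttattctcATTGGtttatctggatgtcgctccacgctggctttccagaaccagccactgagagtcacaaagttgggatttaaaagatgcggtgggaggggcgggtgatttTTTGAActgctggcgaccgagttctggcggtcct
Mcm5, chr8:75109259-75109558, plus strand: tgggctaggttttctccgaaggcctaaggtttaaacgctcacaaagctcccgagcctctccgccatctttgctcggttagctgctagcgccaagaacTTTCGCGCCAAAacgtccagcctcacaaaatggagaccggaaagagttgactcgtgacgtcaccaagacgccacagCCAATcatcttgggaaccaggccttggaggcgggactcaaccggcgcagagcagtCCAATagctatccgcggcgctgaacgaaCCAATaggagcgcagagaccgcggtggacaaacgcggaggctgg

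Of the 38 members, 32 had a promoter in the table of 32851 promoters from 27025 genes. In the counts below each member stands as 1 promoter, taken to hold a word when any promoter listed for it did. The percents of all are over single promoters. A CHR word lay in 14 of 19 G2/M promoters, in 1 of 10 S promoters (Mcm2) and in 1 of 3 broad promoters (Hmgb2), and 17.9% of all promoters held one. All 14 of those G2/M promoters also held a CCAAT word, a pairing present in 6.95% of all promoters. CCAAT words alone were in 17 of 19 G2/M promoters, in 8 of 10 S promoters and in 37.4% of all. E2F words lay in 5 of 10 S promoters (Mcm3, Mcm5, Mcm6, Mcm7 and Rrm1), in 1 of 19 G2/M promoters (Cdk1), and in 2.96% of all. The Ube2c promoter held 1 CHR word, 29 bases before the start, and 6 CCAAT words, of which a pair overlap. The Aurka and Cenpa promoters each held 1 CHR word just after the start and 2 CCAAT words before it. In the Mcm5 promoter a pair of overlapping E2F words began 153 and 149 bases before the start. The Birc5 window held none of these letters. A match is a description and not a binding site, and a missing match says only that these letters are not in this window.

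Dividing cells were a small part of the spleen and came from many lineages. A cell was called a G2/M cell when it held UMIs of at least 3 of the 22 G2/M members and an S cell when it held at least 3 of the 12 S members. By this count 1497 cells were G2/M cells, or 3.51% of all cells (95% Wilson interval 3.34 to 3.69), and 3650 were S cells (8.57%). Both held for 1027 cells. These classes are ranges rather than types, since 419 cells held exactly 3 G2/M members and 2637 held 2. Depth bears on them, because the median G2/M cell had 11775 UMIs and the median other cell 3149. With each cell thinned to 1500 UMIs, which 40417 cells had, G2/M cells were 1.79% and S cells 2.06% of cells.

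The highest shares of G2/M cells were in an erythroid-like class, in a cluster of plasma cell-like cells, in germinal centre-like B cells and in progenitor-like cells. Among 119 erythroid-like cells 83.2% were G2/M cells (interval 75.5 to 88.8; 79.3% when thinned), and 70.6% were S cells. Plasma cell-like cells split into 2 clusters of nearly the same depth. In cluster 33, with 150 cells and a median of 18472 UMIs, 98.0% were G2/M cells, or 80.7% when thinned. In cluster 12, with 956 cells and a median of 17718 UMIs, 7.74% were, or 1.75% when thinned. Cluster 33 was led by histone and cell cycle genes, and 7 of 8 plasma cell markers passed in it. Histone genes were not removed before clustering, so the split of these clusters was not free of division. Their part in it was not tested.

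Among 271 germinal centre-like B cells 72.3% were G2/M cells (interval 66.7 to 77.3; 46.6% when thinned). Among 187 progenitor-like cells, led by Pf4, Elane, Prtn3 and Mpo, 72.2% were, or 40.3% when thinned. Neutrophil-like cells also split. In cluster 31, which held the granule genes Camp, Ngp and Ltf of immature neutrophils, 44.5% of 137 cells were G2/M cells, or 31.1% when thinned. In cluster 21, which held the receptors Csf3r and Cxcr2 of mature neutrophils, 2 of 314 cells were (0.64%, interval 0.175 to 2.29). That cluster had a median of 1746 UMIs, and 0 of its 216 cells deep enough to be thinned were G2/M cells, which allows a share of up to 1.39%. Mature neutrophils do not divide, so this share served as a rough background for the other classes. It is not matched to them in depth, since for example B1-like cells had a median of 4899.5 UMIs.

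In the abundant lineages dividing cells were rare. G2/M cells were 0.498% of 15450 follicular-like B cells (interval 0.399 to 0.622; 0.0808% when thinned), which lies within the interval of the neutrophil-like background. They were 1.79% of 13193 T lineage cells (0.791% when thinned), also within the background interval. The share was 2.54% of 4603 marginal zone-like B cells (0.393% when thinned) and 4.70% of 1914 B1-like cells (0.317%). The thinned limit of 1.39% in the neutrophil-like background rests on 0 G2/M cells in 216. So few cells cannot tell whether these thinned shares lie above the background. Within the T lineage the share was 5.40% in cluster 9 (2.93% when thinned), and 3.19% in cluster 10, which held Foxp3, the factor of regulatory T cells (1.96%). Of the dendritic-like cells 14.2% were G2/M cells (6.69% when thinned), with 14.9% in cluster 15 and 22.1% in cluster 28 but 1 of 157 cells in cluster 35, led by Siglech, a marker of plasmacytoid dendritic cells.

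**Figure D1:**
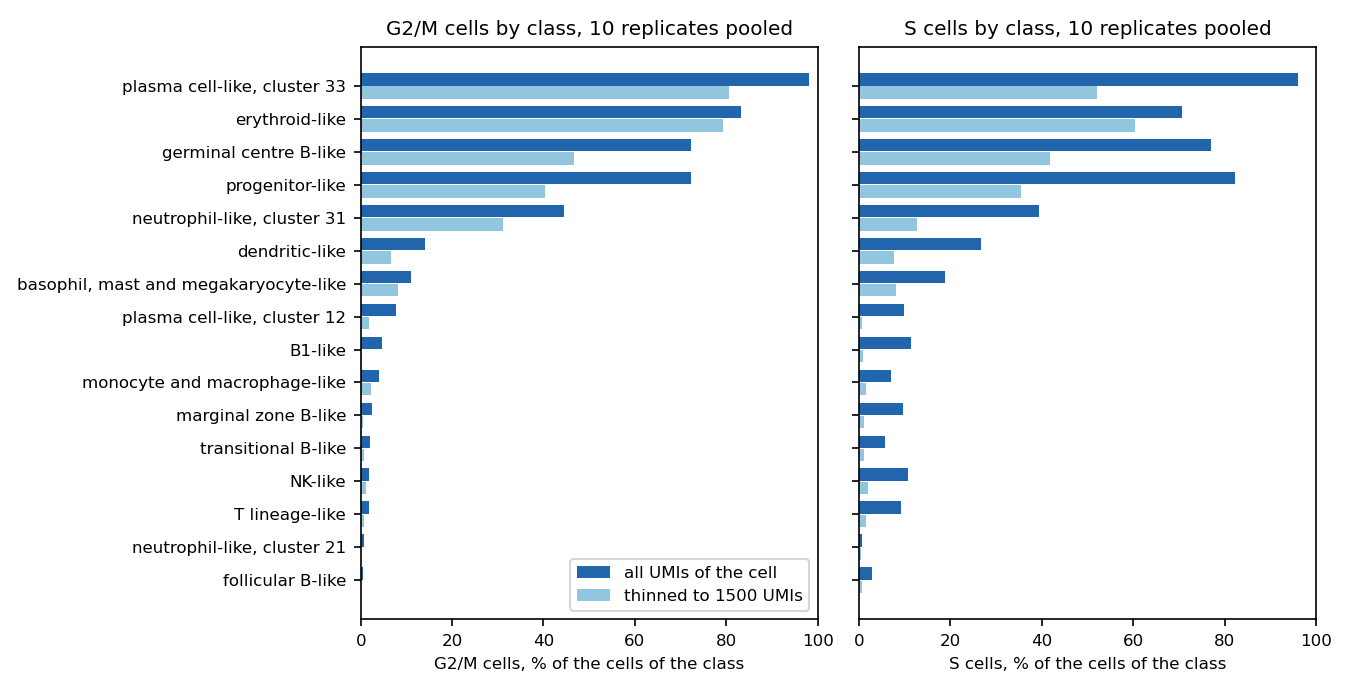
Percent of cells of each class (rows) that were G2/M cells and S cells, with dark bars for all UMIs and light bars for cells thinned to 1500 UMIs. Plasma cell-like cluster 33 reached 98.0% G2/M cells and follicular-like B cells 0.498%.

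Counted the other way round, no single lineage held most of the 1497 G2/M cells. The B lineage held 501 of them (33.5%), of which 196 were germinal centre-like, 117 marginal zone-like, 90 B1-like and 77 follicular-like. The T lineage held 236 (15.8%, and 7.66% to 24.8% over replicates), plasma cell-like cells 221 (14.8%, 12% to 19.4%), dendritic-like cells 151 (10.1%, 5.60% to 13.6%), progenitor-like cells 135 (9.02%, 3.26% to 15.7%), erythroid-like cells 99 (6.61%, 1.09% to 12%) and neutrophil-like cells 63 (4.21%, 0.0% to 12.4%). These ranges overlap, so the order of the classes differed between replicates. Germinal centre-like B cells were 0.636% of all cells and 13.1% of the G2/M cells. S cells lay more in the abundant lineages, with 1211 of 3650 (33.2%) in the T lineage, 443 (12.1%) in follicular-like and 442 (12.1%) in marginal zone-like B cells. In the T lineage 9.18% of cells were S cells, or 1.53% when thinned, and in marginal zone-like B cells 9.60%, or 1.16%.

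Levels of the members were highest in the same classes. They are given as UMIs of a gene per 1000000 UMIs of a cell class (CPM), and they are set against other classes and not against other genes. Summed over the 22 G2/M members the level was 6781 CPM in erythroid-like cells, 4716 in plasma cell-like cluster 33, 4292 in germinal centre-like B cells, 3014 in neutrophil-like cluster 31, 2907 in progenitor-like cells, 887 in dendritic-like cells, 326 in T lineage cells and 205 in follicular-like B cells. Summed over the 12 S members it was 4118 CPM in erythroid-like cells, 2410 in germinal centre-like B cells, 2302 in cluster 33, 2153 in progenitor-like cells, 933 in neutrophil-like cluster 31, 452 in T lineage cells and 276 in follicular-like B cells. The G2/M sum over the S sum was 3.23 in neutrophil-like cluster 31, 2.05 in plasma cell-like cluster 33, 1.78 in germinal centre-like B cells, 1.65 in erythroid-like cells and 1.35 in progenitor-like cells, against 0.72 in T lineage cells and 0.63 in marginal zone-like B cells. These sums are descriptions of pooled cells, with no test. The ratio did not follow the share of G2/M cells in every class. In plasma cell-like cluster 12 (7.74% G2/M cells) the G2/M members averaged 1.76 and the S members 1.01 per 10000 UMIs of a cell. In neutrophil-like cluster 21 (0.64% G2/M cells) these means were 2.15 and 1.43.

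Among the S members the MCM helicase, which unwinds DNA at origins, was present in each of its subunits. In erythroid-like cells Mcm2 was at 226 CPM, Mcm3 at 324, Mcm4 at 243, Mcm5 at 276, Mcm6 at 292 and Mcm7 at 377, while in follicular-like B cells the 6 subunits lay between 14.6 CPM (Mcm5) and 27.3 CPM (Mcm4). Pcna, the clamp that holds polymerases on DNA, was at 754 CPM in erythroid-like and 103 CPM in follicular-like B cells. Rrm1 and Rrm2, the subunits of the reductase that makes deoxynucleotides, differed in how far they reached into resting cells. Rrm2 was at 616 CPM in erythroid-like and 3.29 CPM in follicular-like B cells, and Rrm1 at 440 and 24.3 CPM in the same order of classes. Tyms and Tk1, which supply thymidylate, were at 251 and 240 CPM in erythroid-like cells and at 3.22 and 4.19 CPM in follicular-like B cells. Gins2, of the complex that activates the helicase, was at 78.5 CPM in erythroid-like and 4.68 CPM in follicular-like B cells.

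Among the G2/M members Mki67, which coats mitotic chromosomes, was at 1491 CPM in erythroid-like cells, at 648 in plasma cell-like cluster 33, at 585 in germinal centre-like B cells, at 395 in progenitor-like cells, at 23.7 in T lineage cells and at 3.24 in follicular-like B cells. Over the 6 replicates with at least 10 erythroid-like cells (2 R594C/R594C and 4 R594C/+) its level ranged from 1222.5 to 2090.5 CPM with a median of 1483.5. Top2a, the topoisomerase that untangles chromosomes, was at 808 CPM in plasma cell-like cluster 33, at 710 in erythroid-like and at 662 in germinal centre-like B cells; the erythroid-like replicates ranged from 608 to 825 CPM, so these neighbours lay within their spread. The cyclins and their kinase were highest in erythroid-like cells, at 290 CPM for Ccna2, 195 for Ccnb1, 256 for Ccnb2 and 293 for Cdk1, and between 1.16 and 2.29 CPM in follicular-like B cells. Birc5 and Aurkb, partners in the complex that corrects chromosome attachment, were at 591 and 83.9 CPM in erythroid-like cells, and Aurkb was higher in plasma cell-like cluster 33 (119 CPM) and germinal centre-like B cells (112 CPM).

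Ube2c and Cdc20, which start the degradation that ends mitosis, were at 636 and 134 CPM in erythroid-like cells and at 3.57 and 3.03 CPM in follicular-like B cells. The spindle checkpoint kinases Bub1 and Bub1b were at 68.1 and 68.7 CPM in erythroid-like cells. Of the spindle genes, Aurka was at 90.0, Plk1 at 88.8, Tpx2 at 193, Nusap1 at 213, Kif11 at 195, Kif23 at 91.8 and Ckap2l at 82.1 CPM there. The centromere genes Cenpa, Cenpe and Cenpf were at 493, 168 and 347 CPM, with Cenpe higher in germinal centre-like B cells (197 CPM). The broad members had their highest levels in different classes, with H2az1, a histone variant, and Hmgb2, a DNA-bending protein, at 3787 and 3021 CPM in neutrophil-like cluster 31, Stmn1, which destabilises microtubules, at 1136 in progenitor-like cells, and the tubulin gene Tubb5 at 1586 in plasma cell-like cluster 33. In erythroid-like cells H2az1 was at 2723, Hmgb2 at 2888, Stmn1 at 777 and Tubb5 at 1254 CPM.

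**Figure D2:**
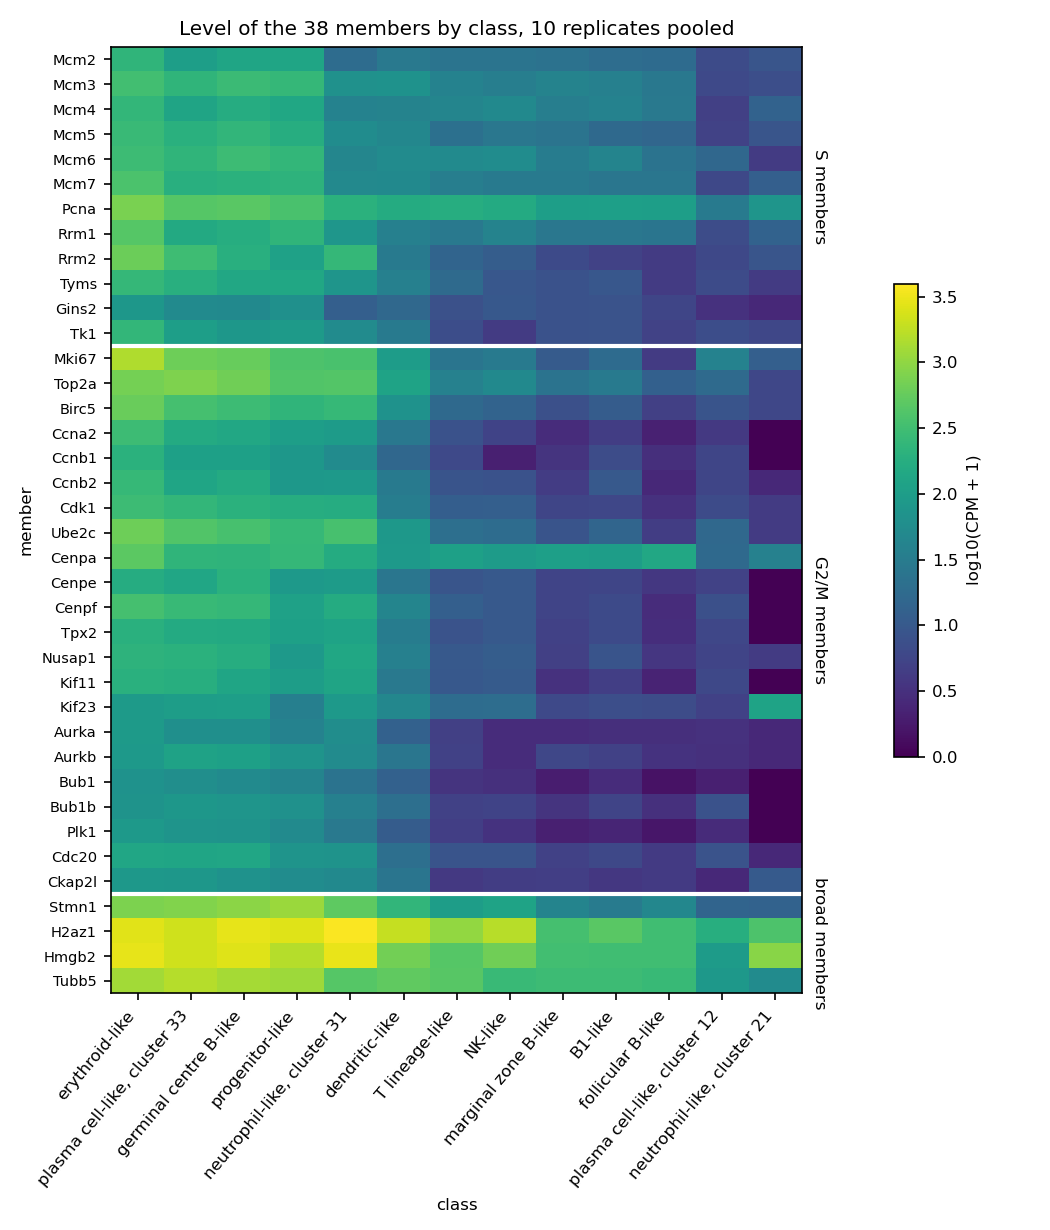
Level of each of the 38 members (rows, by role) in each cell class (columns), as log10 of CPM + 1. Bright colours are high levels. Erythroid-like cells, plasma cell-like cluster 33 and germinal centre-like B cells are bright throughout, while Pcna, Cenpa and the broad members also stand out in follicular-like and T lineage cells.

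The members differed in how far they were confined to G2/M cells, and most of the S members were not. For each gene the share of its UMIs that came from G2/M cells was taken, leaving its own UMIs out of the call. The median was 89.1% for the G2/M members, 53.0% for the S members and 42.0% for the broad members, while the G2/M cells were 3.51% of cells. Ccna2 was the G2/M member with the highest share (94.9%) and 1.94% of cells held a UMI of it. Cenpa had the lowest (24.2%), since 28.4% of cells held a UMI of it, and 28.9% of its UMIs came from follicular-like B cells, 25.2% from T lineage cells and 3.27% from germinal centre-like B cells. Its level was 217 CPM in germinal centre-like B cells and 145 CPM in follicular-like B cells.

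Kif23, a motor that bundles the midzone of the spindle, had the next lowest share among the G2/M members (54.4%). It was at 123 CPM in neutrophil-like cluster 21 (77 UMIs, in 19.7% of its cells) and at 84.9 CPM in neutrophil-like cluster 31, and at 5.79 CPM in follicular-like B cells. In cluster 21 the other G2/M members were each found in at most 5.73% of cells (Cenpa), and 9 of them were at 0. Among the S members Rrm2 was confined most (90.2%), followed by Tyms (78.6%) and Tk1 (75.8%), while Pcna (32.3%) and Mcm4 (38.1%) were spread most widely. Pcna was found in 33.4% of cells and Rrm2 in 2.75%. Among the broad members the share was 72.6% for Stmn1 and 35.6% for H2az1, which 70.1% of cells held.

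**Figure D3:**
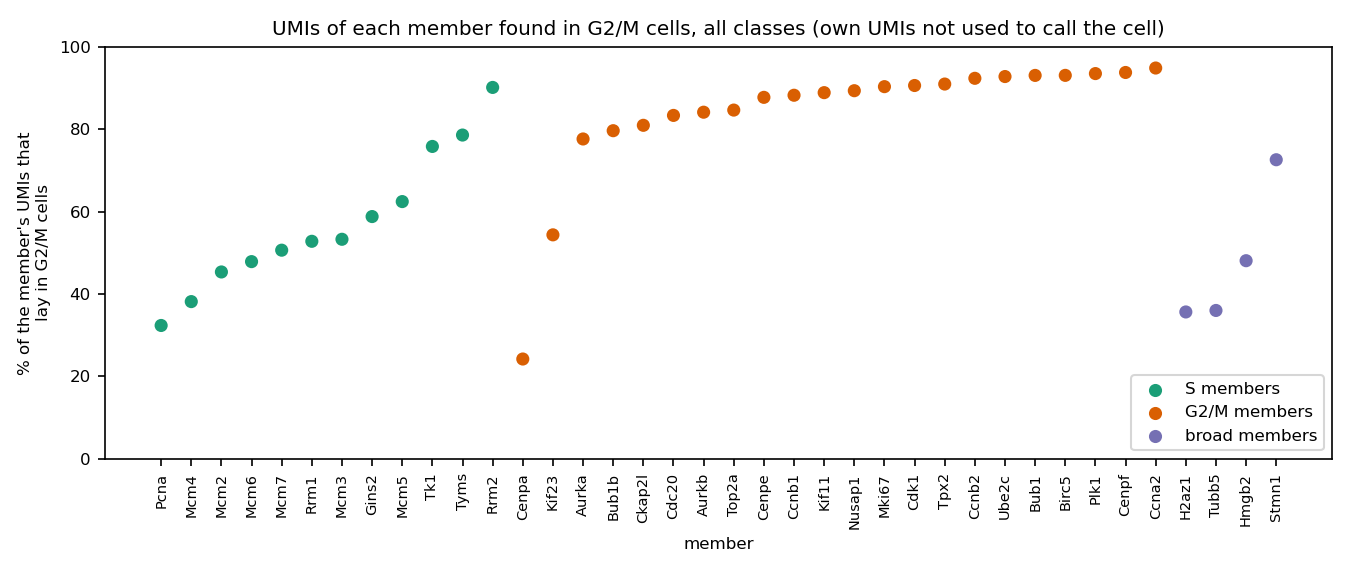
Percent of each member's UMIs that came from G2/M cells (y axis), 1 point per gene (x axis), grouped by role. A gene's own UMIs were not used to call its cells. Most G2/M members lie near 89.1%, with Cenpa at 24.2% and Kif23 at 54.4%, and the S members spread from 32.3% (Pcna) to 90.2% (Rrm2).

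Other cell cycle genes were examined in the same cells as a description, since the lists were chosen with results of these data known. In B lineage G2/M cells, against the other B lineage cells, all 42 further G2/M genes were higher, 41 of them by at least 2-fold, and 27 of 28 further S genes were higher. In follicular-like B cells 31 of 37 further G2/M genes were higher, 20 of them by at least 2-fold, and 4 were lower by at least 2-fold. Of 28 further S genes 19 were higher there, 5 of them by at least 2-fold, and 6 were lower by at least 2-fold. Genes of exit from the cycle were lower in 9 of 12 cases in the B lineage, but in 4 of 12 in follicular-like B cells. Klf2, a factor of resting lymphocytes, was at 551 CPM in G2/M and 1978 CPM in other B lineage cells, and Cdkn1b, which encodes the inhibitor p27, at 67.8 CPM in G2/M and 138 CPM in other cells. In plasma cell-like cells 11 of 12 exit genes were higher in G2/M than in other cells, as were all 8 genes of entry with the D cyclins, all 42 further G2/M genes and all 28 further S genes. The 2 sets lay in different clusters there, since cluster 33 held 147 of the 221 G2/M cells and had 150 cells in all, so cluster and division are mixed in these values. Klf2 was at 718 CPM in the G2/M and 361 CPM in the other plasma cell-like cells. Myc, which drives growth, was at 88.8 CPM in G2/M and 8.36 CPM in other plasma cell-like cells, but at 168 CPM in G2/M and 311 CPM in other B lineage cells.

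Surface proteins, which played no part in calling a cell a G2/M cell, differed between G2/M cells and other cells of the same lineage. Antibody UMIs were summed per replicate and set, and compared with edgeR's quasi-likelihood test with the replicate as a block and Benjamini-Hochberg adjustment at 0.05. Of the antibodies tested 46 of 170 (27.1%) passed in the B lineage, 49 of 107 (45.8%) in plasma cell-like cells, 33 of 168 (19.6%) in the T lineage, 20 of 167 (12%) in marginal zone-like, 15 of 140 (10.7%) in B1-like and 10 of 118 (8.47%) in dendritic-like cells. None of 57 (0.0%) passed in germinal centre-like B cells over 4 replicates, where 7 had an unadjusted p under 0.05. Values below are antibody UMIs per 10000 (mean ± SD over replicates), and G2/M cells also hold more RNA than the cells they are set against.

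In the B lineage the death receptor CD95 was at 56.7 ± 14.4 in G2/M and 10.6 ± 3.10 in other cells (n = 10; log2 fold 2.31 ± 0.13 SE, edgeR adjusted p = 2.4e-22), and the transferrin receptor CD71 at 99.4 ± 28.5 in G2/M and 27.9 ± 2.90 in other cells (1.66 ± 0.12, edgeR adjusted p = 3.2e-17). The costimulator CD86 (log2 fold 1.54), the nucleotide-cleaving enzymes ENPP1 (1.47) and CD73 (1.47), and CD11c (1.32, higher in 9 of 10 replicates) followed. The lowest folds were for the complement regulator CD55 (−1.67), IgD of mature naive B cells (−1.65), an antibody listed as Integrin (−1.20), the receptor chain CD79b (−0.96), the complement receptors CD21 and CD35 (−0.85) and CD1d (−0.82). IgD was at 593 per 10000 in G2/M and 1673 in other B lineage cells. The B lineage G2/M cells were germinal centre-like in 196 of 501 cases, so class and division are mixed in these folds.

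Within the marginal zone-like and B1-like classes CD95 and CD86 were also higher in G2/M cells. In marginal zone-like B cells CD86 was at 116 per 10000 in G2/M and 49.0 in other cells (log2 fold 1.13), CD71 at 65.6 and 28.5 (1.08) and CD95 at 19.6 and 8.42 (1.05), followed by CD11c (0.92), CD69 (0.90) and the adhesion molecule CD54 (0.86). Lower there were CD41 (−1.72), P2RY12 (−1.51), CD55 (−0.82), Integrin (−0.76), IgD (−0.74) and CD1d (−0.65). In B1-like cells CD95 was higher by 1.14, CD86 by 1.04, CD54 by 0.71 and the MHC class II tag IA_IE by 0.45 on the log2 scale. The lowest folds in B1-like cells were for CD326 (−1.24), CD1d (−1.01), IgD (−1.01), CD79b (−0.90), CD49f (−0.86) and CD5 (−0.86), the last of which marks B1a cells.

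In plasma cell-like cells CD71 and CD45R_B220 were among the tags with the highest folds, and the 147 of 221 G2/M cells that lay in cluster 33, where 8 B lineage markers passed and 4 did in cluster 12, mix cluster with division. CD71 was at 114 ± 31.7 in G2/M and 24.5 ± 5.98 in other plasma cell-like cells (n = 10; log2 fold 2.57 ± 0.17 SE, edgeR adjusted p = 5.3e-09). CD45R_B220, the B cell form of CD45, was at 42.6 in G2/M and 14.9 in other cells (1.87), IA_IE at 2296 and 864 (1.80), CD22 at 34.2 and 14.2 (1.62), and CD24 at 518 and 238 (1.46). All 5 were higher in 10 of 10 replicates. The lowest folds were for CD39 (−1.79), the survival receptor CD28 (−1.59), ENPP1 (−1.56), CD326 (−1.56), CD69 (−1.33) and CD36 (−1.18). ENPP1 thus passed the test in opposite directions in B lineage and plasma cell-like cells; the difference between these folds was not tested.

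T lineage G2/M cells carried more CD71, at 24.5 ± 3.46 in G2/M and 5.92 ± 1.37 in other cells (n = 10; log2 fold 2.26 ± 0.16 SE, edgeR adjusted p = 7.5e-13). The activation markers CD278 (ICOS; 255 in G2/M and 113 in other cells, log2 fold 1.41) and CD279 (PD-1; 1.01), the integrins CD49d (1.16) and CD29 (1.06), and CD80 (0.89) followed. The lowest folds were for the γδ receptor tags TCRg2 (−1.87) and TCRgd (−1.20), the IL-7 receptor CD127 (−1.26), CD68 (−1.05), CD301b (−1.03) and CD314 (−0.97). The T lineage G2/M cells lay in other clusters than most of the lineage. Clusters 9, led by Sostdc1 and Il21, and 10 held 101 and 40 of the 236 G2/M cells and 1870 and 1255 of the 13193 T lineage cells, and cluster 29, with the γδ receptor genes Trgc1 and Trdc among its leading genes, held 0 G2/M cells in 166, so cluster and division are mixed in these folds too. Among dendritic-like cells Integrin (0.79), CD117 (0.77), CD49f (0.76), CD11c (0.75), CD80 (0.74) and CD54 (0.31) were higher in G2/M cells. Lower there were CD317, a marker of plasmacytoid cells (26.2 in G2/M and 180 in other cells, log2 fold −2.97), CD36 (−1.42), Ly6A_Ly6E (−1.13) and Ly6C (−0.95).

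With both sets limited to cells of 2000 to 8000 RNA UMIs, which could be run for the B and T lineages, the log2 fold of CD95 in the B lineage was 1.66, of CD71 0.62 and of IgD −1.21, and that of CD71 in the T lineage 1.33. These fits held 9 replicates in the B lineage and 6 in the T lineage. CD11c in the B lineage (0.56) and CD80 (0.36), CD68 (−0.47), TCRgd (−0.95), CD301b (−1.01) and CD314 (−0.91) in the T lineage no longer passed.

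Between genotypes, summed over all cells, the folds of R594C/+ over WT were above 0 for all 38 members, but no member passed the test over all genes. Over R594C/+ replicates 1 to 4 the 22 G2/M members summed to 979, 769, 460 and 667 CPM, and over WT replicates to 470, 448, 547 and 395 CPM. R594C/+ replicate 3 lay among the WT replicates, and the other R594C/+ replicates lay above them all. Of the 38 members 0 passed at an adjusted p of 0.05 (edgeR's quasi-likelihood test, lowest adjusted p 0.11), against 0.516% of 14936 genes. At an unadjusted p under 0.05, 34 of 38 were higher, against 9.09% of genes. DESeq2 called 17 members, and 405 genes in all. The median log2 fold was 0.65 (0.75 for G2/M and 0.39 for S members) where that of all genes was 0.00. Since most G2/M transcripts came from the same cells, these 38 folds are not separate observations.

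The largest folds of R594C/+ against WT were those of Bub1, Rrm2 and Birc5. Bub1 was at 12.6, 7.72, 4.28 and 5.91 CPM in R594C/+ and 3.54, 2.81, 4.85 and 3.78 CPM in WT replicates (log2 fold 1.03 ± 0.31 SE, edgeR adjusted p = 0.19). Rrm2 was at 50.8, 38.9, 22.9 and 33.4 CPM in R594C/+ and 18.4, 17.1, 23.5 and 14.8 CPM in WT replicates (0.99 ± 0.23, edgeR adjusted p = 0.11). Birc5 was at 67.4, 55.7, 25.0 and 45.2 CPM in R594C/+ and 24.4, 22.6, 30.98 and 20.6 CPM in WT replicates (0.98 ± 0.28, edgeR adjusted p = 0.18). In each the groups overlapped at R594C/+ replicate 3 and WT replicate 3. The smallest folds were those of the genes found most widely, Pcna (0.05), Tubb5 (0.08) and Cenpa (0.11).

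The result turned on 1 replicate. Without R594C/+ replicate 3, 28 of the 38 members passed the same test and the median fold was 0.84, with 681 genes called in all. With expressed sex in the fit 17 members had an unadjusted p under 0.05, none passed after adjustment, and 37 of 38 were higher. Markers of other lineages also differed between R594C/+ and WT, though not always in step with the members. The 10 erythroid markers summed to 1348, 2640, 1600 and 1088 CPM in R594C/+ and 313, 301.1, 702 and 514 CPM in WT replicates, with 3 of the 10 called higher. The 5 progenitor markers summed to 220, 69.0, 43.2 and 149 CPM in R594C/+ and to between 10.7 and 16.9 CPM in WT replicates, and the 9 neutrophil markers to between 1709 and 14739 CPM in R594C/+ and between 191 and 983 CPM in WT replicates, none of them called. Without erythroid-like, progenitor-like and neutrophil-like cells the members' median fold was 0.31, with 35 of 38 higher, 2 at an unadjusted p under 0.05 and 0 passing. Leaving out plasma cell-like cells too gave 0.32 and 36 of 38. In R594C/R594C replicates, where no member passed, the erythroid markers summed to 1893 and 1325 CPM. The progenitor markers summed to 14.3 and 87.5 CPM there, and the neutrophil markers to 610 and 3670 CPM. In R594C/+ replicate 3 the erythroid markers (1600 CPM) lay above all WT replicates, though its G2/M members did not. The part of these lineages in the result was not tested.

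In homozygous spleens the G2/M members summed to 556 and 552 CPM, just above the highest WT replicate. Against WT 0 of 38 members passed in R594C/R594C, as did 0 of 14936 genes (0.0%), with 2 members higher at an unadjusted p under 0.05 against 2.27% of genes, and DESeq2 called 0 members. The median fold was 0.20, with 35 members higher. The highest folds were those of Plk1 (0.58 ± 0.28 SE), Tk1 (0.57 ± 0.28) and Bub1 (0.55 ± 0.36), and the lowest those of Mcm6 (−0.06), Mcm4 (−0.02) and Cenpe (−0.01). Without erythroid-like, progenitor-like and neutrophil-like cells the median was 0.02 and 23 of 38 were higher. Against R594C/+ 0 of 38 passed in R594C/R594C by edgeR or DESeq2, against 0.0134% of genes, and 5 were lower at an unadjusted p under 0.05 against 6.39% of genes. The median was −0.37 and 36 of 38 were lower, with Mki67 (−0.81 ± 0.32), Cenpe (−0.75) and Cenpf (−0.73) at the low end and Cenpa (0.08), Pcna (0.04) and Tubb5 (−0.07) at the other.

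The share of G2/M cells is built from the members and so is given without a test. It was 2.65% and 2.96% of cells in R594C/R594C replicates, 6.70%, 5.26%, 2.70% and 4.56% in R594C/+ replicates, and 2.75%, 2.94%, 3.55% and 2.96% in WT replicates. The R594C/+ replicates other than replicate 3 were above all others. S cells were 7.11% and 7.77% of cells in R594C/R594C, 10.8%, 10.3%, 7.08% and 10.5% in R594C/+, and 9.49%, 9.08%, 8.44% and 8.24% in WT replicates, with both R594C/R594C replicates and R594C/+ replicate 3 below every WT replicate. Those 3 replicates also had the lowest median UMIs per cell, at 2857, 3086 and 3022, where the others had 3303.5 to 3665. With cells thinned to 1500 UMIs the S share was 1.77% ± 0.33 in R594C/R594C, 2.83% ± 0.70 in R594C/+ and 1.59% ± 0.12 in WT replicates (mean ± SD, n = 2, 4 and 4), so the R594C/R594C mean was no longer below that of WT. Of the G2/M cells, cells of the erythroid-like, progenitor-like, neutrophil-like and plasma cell-like classes made up 0.732% and 1.22% of all cells in R594C/R594C, 2.69%, 2.14%, 1.01% and 1.86% in R594C/+, and 0.737%, 0.901%, 0.745% and 0.612% in WT replicates. In this sum every R594C/+ replicate exceeded every WT replicate, but in the plasma cell-like class alone R594C/+ replicate 3, at 0.324% of all cells, was below all WT replicates (0.469% to 0.536%). G2/M cells of the other classes were 1.92% and 1.75% of all cells in R594C/R594C, 4.01%, 3.12%, 1.68% and 2.70% in R594C/+, and 2.01%, 2.04%, 2.80% and 2.35% in WT replicates, and these groups overlapped. Progenitor-like cells numbered 60 in R594C/R594C, 100 in R594C/+ and 27 in WT, erythroid-like cells 44, 63 and 12 in the same order, and cells of neutrophil-like cluster 31 35, 96 and 6. These counts and shares cover only cells with a hashtag, and hashtags were missing unevenly. Before hashtags were assigned, barcodes rich in hemoglobin transcripts numbered 55 in R594C/R594C, 71 in R594C/+ and 36 in WT. Of these, 22, 30 and 7 were assigned a single hashtag. The part of missing hashtags in the genotype differences was not tested. No WT replicate had 10 erythroid-like cells, so the genotypes were not tested in that class.

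**Figure D4:**
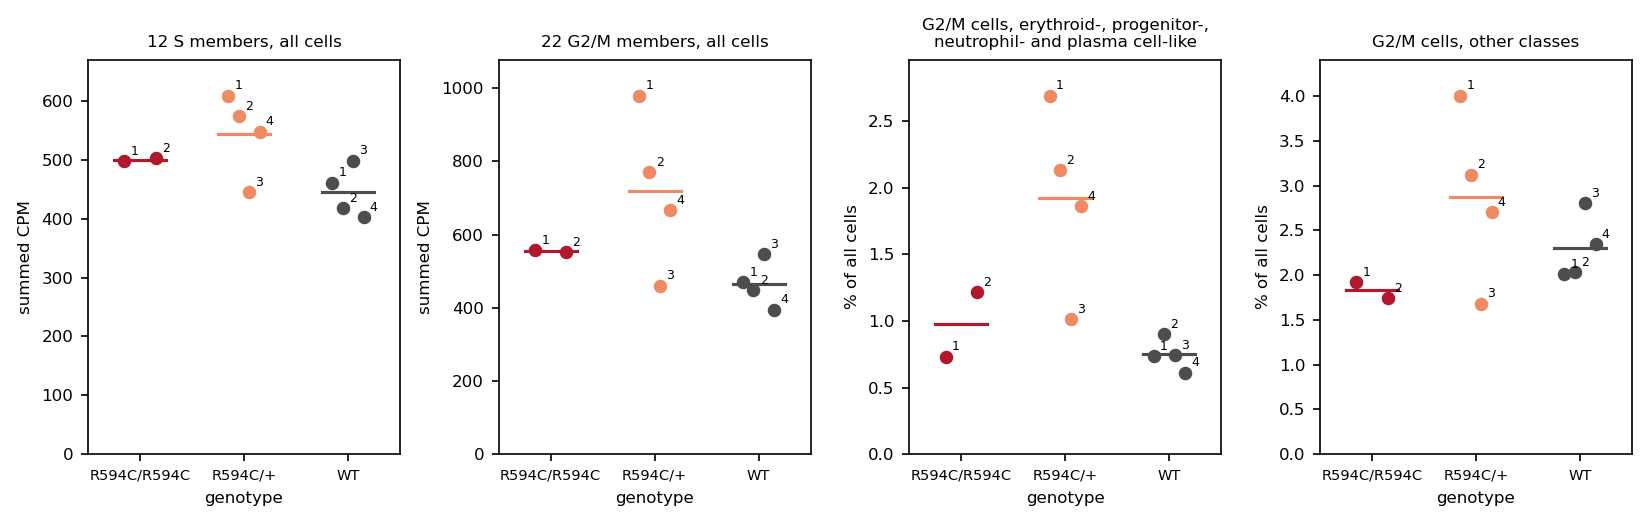
Summed CPM of the 22 G2/M and 12 S members over all cells, and G2/M cells as percent of all cells in the erythroid-like, progenitor-like, neutrophil-like and plasma cell-like classes and in all other classes; points are hashtag replicates with their numbers and lines are means, from R594C/R594C to R594C/+ to WT. R594C/+ replicate 3 lies with the WT replicates in the sums and 3 other R594C/+ replicates lie above them.

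Within G2/M cells the genotypes overlapped. Summed over G2/M cells the G2/M members were at 4098 and 3504 CPM in R594C/R594C, at 4423, 3861, 3627 and 3796 CPM in R594C/+, and at 3854, 3405, 3229 and 3477 CPM in WT replicates. In germinal centre-like B cells the share of G2/M cells was 73.0% and 81.0% in R594C/R594C, 67.6%, 65.7%, 73.7% and 80.0% in R594C/+, and 64.3%, 66.7%, 69.8% and 77.3% in WT replicates, which also overlapped. The edgeR test there called 0 of 38 members in each of the 3 contrasts, against 0.0% of 6147 genes, with 2, 5 and 5 members at an unadjusted p under 0.05 for R594C/R594C against WT, R594C/+ against WT and R594C/R594C against R594C/+, where 5.22%, 5.42% and 4.65% of genes were. DESeq2 called none of the members. WT replicate 2 had under 10 such cells and was not in this fit.

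In the B lineage as a whole, 2 of 38 members were lower in R594C/R594C than in R594C/+, where 1.37% of 12158 genes passed (167 genes, and between 22 without R594C/R594C replicate 1 and 239 without WT replicate 2 when 1 replicate was left out). Aurka, the kinase that builds the spindle poles, was at 3.01 and 2.75 CPM in R594C/R594C and at 5.26, 6.18, 3.97 and 5.66 CPM in R594C/+ replicates (log2 fold −0.88 ± 0.22 SE, edgeR adjusted p = 0.049), and at 4.73, 3.92, 5.75 and 5.27 CPM in WT replicates. Mcm4, a helicase subunit, was at 33.3 and 30.2 CPM in R594C/R594C and at 40.7, 39.2, 37.4 and 43.5 CPM in R594C/+ replicates (−0.36 ± 0.088 SE, edgeR adjusted p = 0.047), and at 33.8, 32.5, 40.1 and 34.9 CPM in WT replicates. For both genes the 2 R594C/R594C replicates lay below all 4 R594C/+ replicates. Both calls were lost without R594C/+ replicate 1, 2 or 4 or WT replicate 1 or 4. The edgeR adjusted p then reached 0.13 for Aurka and 0.14 for Mcm4. DESeq2 did not call them either (adjusted p 0.081 and 0.070). Leaving out R594C/R594C replicate 1 or 2 leaves 1 replicate in that group. The folds were then −0.93 and −0.84 for Aurka and −0.41 and −0.31 for Mcm4. Aurka overlaps Cstf1 by position, and reads in the shared stretch were not examined. In that contrast 13 members had an unadjusted p under 0.05, against 13.6% of genes, and 36 of 38 had folds below 0 (median −0.34), with Cenpf lowest (−0.92) and Pcna highest (0.16). Neutrophil transcripts differed in the same contrast, and the mean share of germinal centre-like B cells was lower in R594C/R594C, with overlapping replicates. The 9 neutrophil markers summed to 68.4 and 70.0 CPM in R594C/R594C and to between 135 and 141 CPM in R594C/+ replicates of the B lineage. Germinal centre-like B cells were 0.51% and 0.27% of all cells in R594C/R594C (mean 0.391%). They were 1.09%, 1.12%, 0.41% and 0.93% in R594C/+ replicates (mean 0.887%). Those of them that were G2/M cells made up 0.37% and 0.22% of all cells in R594C/R594C (mean 0.296%). In R594C/+ replicates they made up 0.74%, 0.73%, 0.30% and 0.75% (mean 0.629%). In both measures R594C/+ replicate 3 lay below R594C/R594C replicate 1. The part of either in the result was not tested.

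Against WT, R594C/R594C had 0 members called in the B lineage, where 0.123% of genes passed, with 2 at an unadjusted p under 0.05 against 6.23% of genes and a median fold of −0.10. R594C/+ against WT had 0 called, where 0.37% of genes passed, with 7 at an unadjusted p under 0.05 against 8.97% of genes and a median of 0.18. DESeq2 called 0 in both. Smc2, a condensin subunit and not a member, was the further listed G2/M gene that passed in the B lineage. It was at 37.8 and 32.7 CPM in R594C/R594C, at 49.0, 49.4, 47.4 and 46.2 CPM in R594C/+ and at 43.4, 40.8, 48.2 and 48.1 CPM in WT replicates (R594C/R594C against R594C/+ −0.46 ± 0.082 SE, edgeR adjusted p = 0.0086). Ccne1, the cyclin of S phase entry, was the further S gene that passed in all cells. It was at 13.3, 11.9, 8.17 and 11.6 CPM in R594C/+ and 5.97, 6.94, 6.89 and 3.93 CPM in WT replicates, which did not overlap (0.93 ± 0.18 SE, edgeR adjusted p = 0.049), and at 8.43 and 8.74 CPM in R594C/R594C replicates.

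In follicular-like B cells, 32 of the 38 members had enough counts to be tested (not Ccna2, Ccnb1, Kif11, Aurka, Bub1 and Plk1), and Birc5 and Ube2c were higher in R594C/+ than in WT, where 0.526% of 10645 genes passed. Birc5 was at 6.67, 4.89, 6.53 and 5.62 CPM in R594C/+ and 1.02, 1.43, 1.83 and 2.70 CPM in WT replicates (log2 fold 1.77 ± 0.33 SE, edgeR adjusted p = 0.0041). Ube2c was at 7.46, 6.52, 3.40 and 8.02 CPM in R594C/+ and 1.71, 1.72, 1.83 and 3.03 CPM in WT replicates (1.62 ± 0.34, edgeR adjusted p = 0.013). In both genes all R594C/+ replicates lay above all WT replicates. In that contrast 7 members had an unadjusted p under 0.05, against 7.22% of genes. Birc5 passed without each replicate in turn, while Ube2c did not pass without R594C/+ replicate 2 (adjusted p = 0.066) or 4 (0.11) or WT replicate 1 (0.055) or 3 (0.076). In R594C/R594C replicates Birc5 was at 4.79 and 2.95 CPM (against WT 1.15 ± 0.35, edgeR adjusted p = 0.42) and Ube2c at 3.12 and 2.18 CPM (0.37 ± 0.39).

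These counts were few and lay mostly in cells with no other G2/M member. Other signs of division were not examined in them. Birc5 had 66 UMIs in R594C/R594C, 78 in R594C/+ and 23 in WT follicular-like B cells. Of the 66 R594C/+ cells with a Birc5 UMI, 2 held 3 or more other G2/M members and 49 held none. Those 2 cells gave 9 of the 78 UMIs. Of the 69 R594C/+ cells with a Ube2c UMI, 3 held 3 or more others and 44 held none. Those 3 cells gave 15 of the 82 UMIs, and 1 of them gave 10 of the 30 in R594C/+ replicate 4. Red cell and neutrophil transcripts also differed between R594C/+ and WT. Hemoglobin genes summed to 246 and 227 CPM in R594C/R594C, to 226, 214, 245 and 240 CPM in R594C/+ and to 82.2, 74.5, 80.7 and 89.0 CPM in WT follicular-like B cells. Of 10 erythroid markers 7 were tested and 5 were called higher in R594C/+ than in WT, and of 9 neutrophil markers 6 were tested and 6 were called higher. The neutrophil markers summed to 83.1 and 83.2 CPM in R594C/R594C, to 181, 172, 165 and 171 CPM in R594C/+ and to 44.7, 36.1, 41.1 and 49.2 CPM in WT replicates. Birc5 had 16.6 UMIs per 1000 hemoglobin UMIs in R594C/R594C, 25.4 in R594C/+ and 21.4 in WT follicular-like B cells, and 4.37, 7.49 and 5.86 in erythroid-like cells of the same genotypes. The part of these transcripts in the result was not tested.

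**Figure D5:**
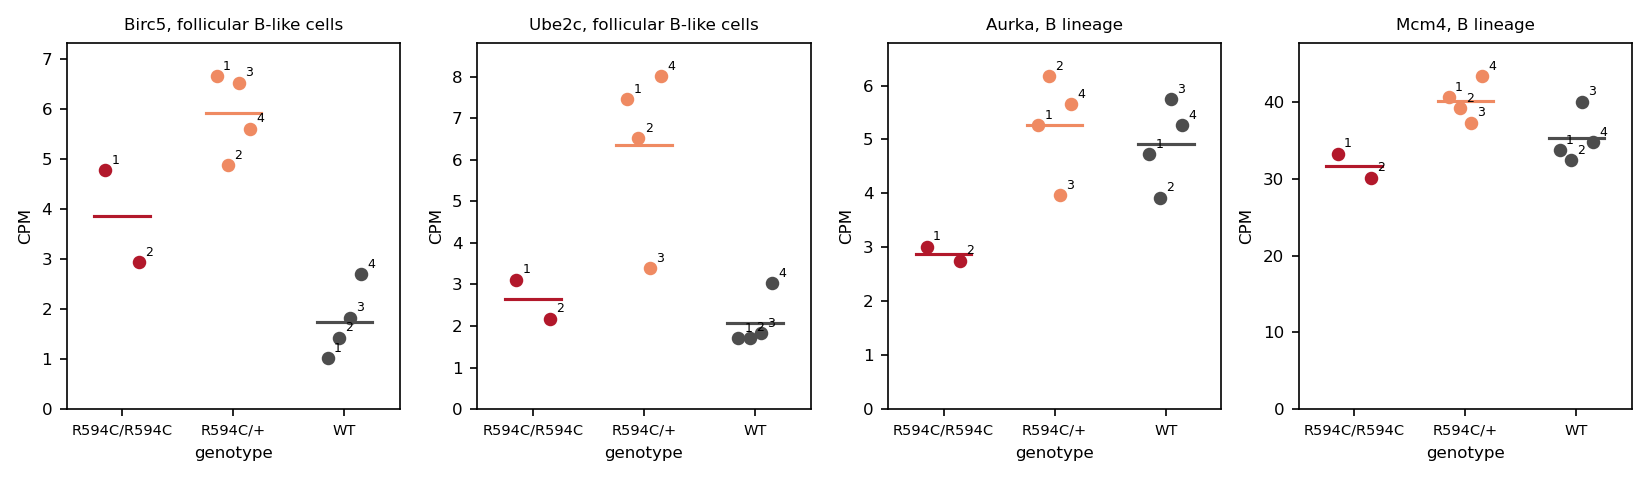
CPM per hashtag replicate of the 4 member calls: Birc5 and Ube2c in follicular-like B cells, Aurka and Mcm4 in the B lineage; points are replicates, lines means, from R594C/R594C to R594C/+ to WT. All 4 R594C/+ replicates exceed all 4 WT replicates for Birc5 and Ube2c, and both R594C/R594C replicates lie below all R594C/+ replicates for Aurka and Mcm4.

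The other follicular contrasts called no member by edgeR or DESeq2. Between R594C/R594C and WT 0 of 32 passed (0.188% of genes), with 1 at an unadjusted p under 0.05 against 5.25% of genes. Between R594C/R594C and R594C/+ 0 passed (0.714% of genes), with 8 at an unadjusted p under 0.05 against 8.98% of genes, and Ube2c came nearest (−1.25 ± 0.32 SE, edgeR adjusted p = 0.057).

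In plasma cell-like cells no member passed in any contrast, by edgeR or DESeq2. The numbers at an unadjusted p under 0.05 were 2 for R594C/R594C against WT, 3 for R594C/+ against WT and 8 for R594C/R594C against R594C/+, where 8.44%, 5.21% and 8.81% of genes were below that p and 0.196%, 0.0808% and 0.266% of 8660 genes passed after adjustment. The median folds were 0.17, −0.15 and 0.40 in the same order, and 36 of 38 members were higher in R594C/R594C than in R594C/+. The share of G2/M cells was 25.0% and 21.9% in R594C/R594C, 24.3%, 19.4%, 13.5% and 17.1% in R594C/+, and 15.1%, 19.8%, 30.5% and 17.6% in WT replicates, and WT replicate 3 was the highest of all.

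In the T lineage no member passed either, by edgeR or DESeq2, where 0.104%, 0.259% and 0.095% of 11578 genes did for R594C/R594C against WT, R594C/+ against WT and R594C/R594C against R594C/+. The numbers at an unadjusted p under 0.05 were 0, 1 and 1, against 3.21%, 6.22% and 6.74% of genes, and the medians 0.02, 0.08 and −0.06. Among monocyte- and macrophage-like cells 31 members were tested and none passed by either tool (0.0%, 0.0% and 0.0146% of 6835 genes), with 4, 7 and 0 at an unadjusted p under 0.05, against 5.33%, 5.46% and 4.37% of genes. Counts there were too few for folds to be given, and Mcm2, Rrm2, Gins2, Aurka, Bub1, Cdc20 and Ckap2l were not tested.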

How the data were processed

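RNA, antibody and hashtag libraries were analysed from 1 capture for each of 3 genotypes. The authors deposited UMI counts per gene or tag and barcode, made with Cell Ranger 5.0.0 per the file headers; STAR, the mm10 build and Seurat 3.1.4 are named in the submitters' processing notes. A barcode was kept when it had 200 or more genes and no more than 10% of UMIs from mitochondria. HTODemux assigned hashtags (Seurat 5.3.0, quantile 0.99); this removed 1543 R594C/R594C, 1977 R594C/+ and 1301 WT doublets and left 193, 333 and 1840 barcodes with no hashtag. Scrublet scores removed further doublets (3.40%, 1.77% and 1.85% of barcodes in that order of genotypes, where 9.98%, 4.45% and 3.43% were expected). Cells were clustered with scanpy 1.11.5 and leidenalg 0.10.2 (2000 variable genes without the listed cell cycle genes, 30 components, 20 neighbours, resolution 1.5). They were named from at least 3 listed markers.

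Counts were summed per hashtag replicate and class (at least 10 cells) and compared with edgeR 4.0.16 (quasi-likelihood, TMM, filterByExpr, Benjamini-Hochberg at 0.05 over all genes) in R 4.3.3, with DESeq2 1.42.0 as an alternative. An antibody entered the paired comparison within replicates when its sums averaged 10 UMIs or more. Intervals and limits cover counting error only. No pair of replicates of a genotype was a copy of the other, with chi-square per degree of freedom from 11.5 to 54.1.

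The members, lists and rules were chosen with earlier results of these data known. Named in the text are members past 0.05 and, for all cells, the 3 highest and 3 lowest folds per contrast. In single classes the other folds are given by medians and counts, with the ends of the range in the B lineage. The antibodies named are the 6 highest and 6 lowest folds past 0.05, except 1 that is not reported here. Germinal centre-like B cells were added as a class after the data were seen.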

Additional observations from a re-analysis of the deposited data

Results flagged for a closer look

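R594C/+ replicate 3 stood apart from the other R594C/+ replicates in S cells, low in 3 measures. Its share of S cells was 7.08% of all cells, where the others had 10.3% to 10.8%. It was 2.0% of follicular-like B cells, where the others had 3.14% to 3.27%, and 15.3% of plasma cell-like cells, where the others had 21.2% to 21.7%. In B1-like cells the summed G2/M members stood high in a replicate of each of 2 genotypes. The sum was 480 CPM in R594C/+ replicate 2, where the other R594C/+ replicates had 217 to 242 CPM, and 415 CPM in WT replicate 2, where the other WT replicates had 178 to 212 CPM. In R594C/+ replicate 1 the share of G2/M cells among monocyte- and macrophage-like cells was 18.2%, where the others had 1.79% to 3.70%. Ube2c in follicular-like B cells was at 3.03 CPM in WT replicate 4, where the other WT replicates had 1.71 to 1.83 CPM. Of 92 groups of 4 replicates examined, 7 had a replicate that stood apart, and chance gives about 1 in 20.

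Barcodes without a hashtag, which entered no comparison, held G2/M cells at 22.8% in the R594C/R594C capture (44 of 193), at 24.9% in the R594C/+ capture (83 of 333) and at 5.27% in the WT capture (97 of 1840). Hashed barcodes held them at 2.83%, 4.66% and 3.05% in the same order. Of barcodes rich in hemoglobin transcripts 56.4% in R594C/R594C, 53.5% in R594C/+ and 75.0% in WT had no hashtag. The hashtag antibodies bind CD45 and MHC class I, and the shares of dividing cells given here are those of cells that carried a hashtag.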

How the results depend on the processing

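The threshold of 3 members set the shares of cycling cells. With at least 2, at least 5, or thinned cells the mean share of S cells per replicate was 24.9%, 2.89% and 2.12% in all cells, 20.4%, 1.55% and 1.25% in the B lineage, 86.4%, 64.1% and 39.7% in germinal centre-like, 39.3%, 15.1% and 8.01% in plasma cell-like, 29.5%, 1.74% and 1.61% in T lineage and 87.9%, 74.1% and 36.6% in progenitor-like cells. The share of G2/M cells was 8.31%, 1.11% and 0.797% in the B lineage, 82.0%, 59.6% and 47.1% in germinal centre-like and 8.13%, 0.929% and 0.872% in T lineage cells. With at least 2 members and with thinned cells it was 9.98% and 1.87% in all cells and 31.01% and 13.0% in plasma cell-like cells, and with at least 5 members and with thinned cells 59.9% and 36.0% in progenitor-like cells. With cell cycle genes in the clustering the class named erythroid-like gave 73.0%, but 204 of its cells lay in a cluster led by Prtn3 and Mpo, genes that led the progenitor-like class, and 104 in a cluster led by hemoglobin genes, so this is a share of other cells. No class was then named progenitor-like.

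The number of members called changed as follows. For R594C/+ against WT in all cells, 0 became 17 with DESeq2 and 1 without the filter, where 405 and 211 genes were called in all. In the B lineage 2 for R594C/R594C against R594C/+ became 1 with DESeq2, 6 without the filter, 10 with expressed sex in the fit, 1 with the margin rule for hashtags and 1 with cell cycle genes in the clustering, where 187, 482, 235, 189 and 160 genes were called in that order and 167 in the main comparison. In follicular-like B cells R594C/+ against WT gave 1 with cell cycle genes in the clustering (Ube2c adjusted p = 0.18), and R594C/R594C against R594C/+ gave 1 without the filter, 1 with expressed sex and 1 with the margin rule. Without the filter plasma cell-like cells gave 1 for R594C/+ against WT and 2 for R594C/R594C against R594C/+, and monocyte- and macrophage-like cells 1 for R594C/R594C and 2 for R594C/+ against WT. With 1 replicate left out at a time the numbers ranged from 0 to 28 for R594C/+ against WT in all cells, from 0 to 1 for it and from 0 to 4 for R594C/R594C against R594C/+ in the B lineage, from 1 to 2 and from 0 to 1 for the same contrasts in follicular-like B cells, and from 0 to 1 for R594C/+ against WT in plasma cell-like cells. Antibodies called numbered 19 in the B lineage and 13 in the T lineage with 2000 to 8000 RNA UMIs, 21 and 16 in the T lineage with at least 2 and 5 members, and 2 in germinal centre-like B cells with at least 5. They ranged from 5 to 12 in dendritic-like and from 0 to 2 in germinal centre-like cells with 1 replicate left out. The cause was not tested.

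Over all genes and all cells, R594C/+ against WT called 77 genes, but 405 with DESeq2, 211 without the filter, 7 with the margin rule and 2 with expressed sex; R594C/R594C against WT called 0, but 46 with DESeq2 and 12 without the filter; and R594C/R594C against R594C/+ called 2, but 179 and 95. Without the filter R594C/R594C against R594C/+ called 482 genes in the B lineage, where 167 were called with it, and 114 in the T lineage, where 11 were; R594C/+ against WT called 122 in the B lineage, where 45 were, and 131 in the T lineage, where 30 were. With 1 replicate left out, R594C/+ against WT in all cells called from 3 genes (without WT replicate 1) to 681 (without R594C/+ replicate 3), and R594C/R594C against R594C/+ in the B lineage from 22 to 239.

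Folds near 0 changed sign. For R594C/R594C against WT in all cells Mcm4 was 0.011 without the filter (−0.060 to 0.029 with 1 replicate left out), Cenpe 0.019 without the filter, 0.034 with expressed sex and 0.019 with the margin rule (−0.12 to 0.14), and Mcm6 ran from −0.12 to 0.028. For R594C/+ against WT Pcna was −0.047 with expressed sex, and without erythroid-like, progenitor-like and neutrophil-like cells, then also without plasma cell-like cells, Pcna was −0.10 and −0.12 and Tubb5 −0.031 and −0.029. For R594C/R594C against R594C/+ Pcna was −0.015 with the margin rule (−0.057 to 0.12). CD69 in marginal zone-like B cells was −0.040 with at least 2 members.

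The labels do not pair replicates by number, and the deviations of same-numbered replicates correlated at −0.36 to 0.48. With the replicate number as a block 0 members were called for R594C/R594C against R594C/+ in the B lineage (Aurka adjusted p = 0.14, Mcm4 0.17), Pcna was −0.025 in that contrast in all cells, and genes called there numbered 68.

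Not run, for want of cells, were at least 5 members for the antibodies in B1-like and marginal zone-like B cells, at least 2 in germinal centre-like B cells, the 2000 to 8000 UMI window outside the B and T lineages, and genotypes in erythroid-like cells. Few counts limit the members in follicular-like B cells, where 78 Birc5 UMIs carried the R594C/+ value, and in monocyte- and macrophage-like cells, where 31 of 38 could be tested.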
